A study of Mus musculus with 16 samples.

Results

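The TRAV7 segments numbered 1 to 3 are 5 of the 117 V segments read in the TCRα libraries of all CD8 cells, namely TRAV7-1, TRAV7-2, TRAV7-3, TRAV7D-2 and TRAV7D-3. A CDR3 sequence was counted as a member when the first of its V hits was a TRAV7, TRAV7D or TRAV7N segment with 1, 2 or 3 after the hyphen, and no TRAV7N segment with such a number was found. The members held 4178 of 78671 CDR3 sequences (5.31%) and 43513 of 815759 reads (5.33%), with 3887 distinct nucleotide and 3052 distinct amino acid CDR3s. The members were thus chosen by the V hit that the deposited alignment gives each sequence, so their V identity is a description, while genotype, tissue, J segment and clone size took no part in the rule.

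A TCR α-chain is made by joining 1 V segment to 1 J segment in a developing thymocyte. Bases are trimmed and inserted at the joint, which lies in CDR3, the loop that contacts the peptide held by MHC. In the mouse, part of the TRAV locus is duplicated, so that most families occur as near copies, named with a D or an N, and repeated rearrangement lets a cell use J segments from the V-proximal end of the J cluster to the constant-proximal end. Themis is a signalling protein of the T cell lineage needed for positive selection of thymocytes. The comparisons ask whether its loss, and passage from the thymus to lymph nodes (LN), went with another use of these segments or with other CDR3s.

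The 8 libraries were single positive CD8 thymocytes and LN CD8 T cells of Themis+/+ Foxp3-GFP and Themis-/- Foxp3-GFP mice on the C57BL/6 background, with 2 libraries in each of the 4 groups. All groups thus carried the Foxp3-GFP reporter allele, and the Themis-/- mice lack Themis from the germline, in every cell. No label states the age of the mice, and LN of several mice of a genotype were pooled before sorting, so a library is not a mouse. The libraries held 57455 to 146191 reads and 4357 to 16670 CDR3 sequences, of which 3354 to 8826 reads and 239 to 980 sequences were members. Sequences of innate-like chains were rare in these cells, with 0% to 0.419% of reads for TRAV11 or TRAV11D joined to TRAJ18, the chain of NKT cells, and 0% to 0.0424% for TRAV1 joined to TRAJ33, the chain of MAIT cells. TCRα tables do not measure Themis, so genotypes rest on the labels. Another 8 libraries, of cells sorted for Vα3.2, were not used for the comparisons.

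The germline sequences are shown because they split the members in a way that returns in the CDR3s. All 5 genes lie on the plus strand of chromosome 14 of GRCm38 and are annotated in GENCODE M21 as TCR V gene segments. In order along the chromosome they are Trav7-1 from 52654817 to 52655328, Trav7d-2 from 52683964 to 52684472, Trav7d-3 from 52744249 to 52744840, Trav7-2 from 53390635 to 53391142 and Trav7-3 from 53443249 to 53443839. The last 72 or 73 bases of each annotated transcript follow, from 60 bases before the TGT codon of the first CDR3 cysteine to the end of the V exon, with the codon for CDR3 position 3 in capitals.
TRAV7-1: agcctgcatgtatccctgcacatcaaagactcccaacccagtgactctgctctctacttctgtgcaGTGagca
TRAV7D-3: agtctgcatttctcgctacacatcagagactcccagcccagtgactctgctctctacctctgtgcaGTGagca
TRAV7-3: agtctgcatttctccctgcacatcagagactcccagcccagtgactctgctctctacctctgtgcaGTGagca
TRAV7D-2: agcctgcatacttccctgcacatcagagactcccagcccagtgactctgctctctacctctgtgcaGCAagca
TRAV7-2: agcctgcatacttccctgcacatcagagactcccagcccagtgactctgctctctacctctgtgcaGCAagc
TRAV7-1, TRAV7-3 and TRAV7D-3 encode valine (GTG) at position 3, and TRAV7-2 and TRAV7D-2 encode alanine (GCA). Their CDR3s accordingly begin with CAVS or CAAS where the V end is kept. Valine stood at position 3 in 97.6% ± 3.59 (SD over 8 libraries) of the distinct 14-residue CDR3s of the first set and in 0.113% ± 0.319 of those of the second.

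The copies could not all be told apart from the reads. The annotated transcripts of Trav7-2 and Trav7d-2 were identical over all 336 aligned bases, and those of Trav7-3 and Trav7d-3 differed at 4 of 402 bases, while the other pairs were 88.1% to 90.2% identical. Each of the 942 sequences with TRAV7-2 as first hit listed TRAV7D-2 with an equal score, whereas each of the 1062 TRAV7D-2 sequences had TRAV7D-2 as its single best hit. TRAV7-2 sequences held 4.41 reads on average and TRAV7D-2 sequences 18.5. For 31.7% of the TRAV7-2 sequences, a TRAV7D-2 sequence with more reads lay 1 base away in the same library, against 4.61% the other way round. For TRAV7-3 and TRAV7D-3 the shares were 20.1% and 16.7%. Results for TRAV7-2 and TRAV7D-2 are therefore uncertain singly. For the log2 fold changes, values with the D and N copies joined to their partner are given beside them. Shares of reads, J partners, joints and largest clones of single members are given by first hit alone.

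By reads and first hit, TRAV7D-2 was the most used member in each of the 8 libraries and TRAV7-1 the least used in 7 of them, the exception being Themis-/- LN library 2. By distinct sequences the order differed, and in Themis+/+ thymus library 1 TRAV7D-3 had 264 sequences, TRAV7-3 254, TRAV7-2 219 and TRAV7D-2 187. In library 1 and library 2 of each group, TRAV7D-2 made up 2.00% and 2.02% of the reads of Themis+/+ thymus, 3.05% and 2.40% of Themis-/- thymus, 1.89% and 2.46% of Themis+/+ LN and 3.43% and 2.28% of Themis-/- LN. Both Themis-/- thymic libraries lay above both Themis+/+ thymic libraries, and the LN groups overlapped. TRAV7D-3 made up 1.45% and 0.869% in Themis+/+ thymus, 1.10% and 1.63% in Themis-/- thymus, 0.818% and 1.74% in Themis+/+ LN and 1.63% and 1.15% in Themis-/- LN, so that its groups overlapped throughout. TRAV7-3 made up 1.24% and 0.749% in Themis+/+ thymus, 1.08% and 1.22% in Themis-/- thymus, 0.464% and 0.978% in Themis+/+ LN and 0.940% and 0.876% in Themis-/- LN.

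The less used members reached at most 0.788% of a library. TRAV7-2 made up 0.788% and 0.493% in Themis+/+ thymus, 0.650% and 0.561% in Themis-/- thymus, 0.280% and 0.510% in Themis+/+ LN and 0.343% and 0.259% in Themis-/- LN. TRAV7-1, which rests on only 43 to 422 reads a library, made up 0.231% and 0.0437% in Themis+/+ thymus, 0.149% and 0.365% in Themis-/- thymus, 0.194% and 0.151% in Themis+/+ LN and 0.216% and 0.369% in Themis-/- LN. Neighbours in the order TRAV7D-2, TRAV7D-3, TRAV7-3, TRAV7-2 and TRAV7-1 mostly overlapped between libraries, except that the lowest TRAV7D-2 value, 1.89%, lay above the highest TRAV7D-3 value, 1.74%.

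**Figure D1:**
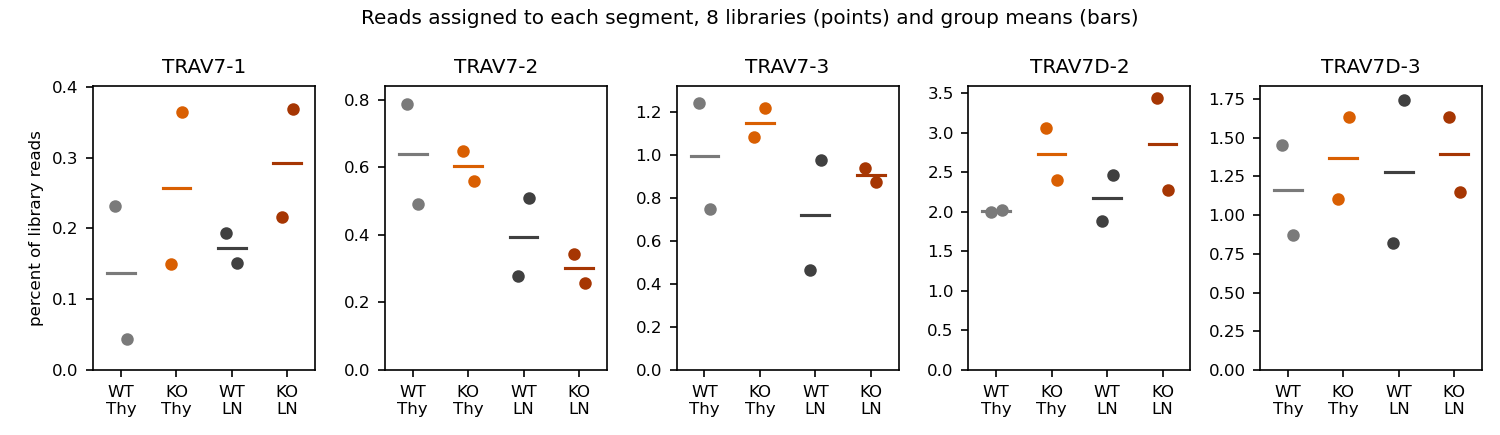
Percent of the reads of a library assigned to each of the 5 segments (y axis, a separate scale per panel) in 4 groups of 2 libraries, with points for libraries and bars for group means; WT is Themis+/+, KO is Themis-/- and Thy is thymus. The 2 Themis-/- thymic points of TRAV7D-2, at 3.05% and 2.40%, stand above the Themis+/+ thymic points at 2.00% and 2.02%, while most other groups overlap.

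No member passed the test between genotypes or tissues. Reads per V segment were tested over 114 segments with edgeR's quasi-likelihood test, and 0 of the 5 members had an adjusted p (Benjamini-Hochberg) under 0.05 in any of the comparisons, against 0% of all segments tested in Themis-/- against Themis+/+ thymus, 1.75% in the LN, 0% between LN and thymus in Themis+/+, 2.63% between LN and thymus in Themis-/- and 0.877% for the interaction of genotype and tissue. None had an unadjusted p under 0.05 either, where 8, 20, 0, 18 and 6 of the 114 segments did in the same order of comparisons. DESeq2 called 0 members in each and 0, 7, 0, 4 and 1 of all segments, so that 0 of 5 members is close to the background. The 8 TRAV7 segments numbered 4 to 6 gave 0 calls as well.

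In the thymus, the log2 fold change of Themis-/- over Themis+/+ was 0.54 ± 0.34 (SE, edgeR, adjusted p = 0.794) for TRAV7D-2 and 0.96 ± 0.80 (adjusted p = 0.838) for TRAV7-1. The log2 fold change of the other members was 0.31 for TRAV7D-3, 0.29 for TRAV7-3 and 0.02 for TRAV7-2. The median of the 5 was 0.31, beside 0.08 over all 114 segments and 0.10 over TRAV7 segments 4 to 6. TRAV7D-2 was the 1 member whose thymic groups did not overlap, while 21.9% of all segments tested were higher and 23.7% lower in both Themis-/- libraries. With the copies joined, the log2 fold change was 0.32 for TRAV7-2 with TRAV7D-2 and 0.21 for TRAV7-3 with TRAV7D-3.

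In the LN, the log2 fold change of Themis-/- over Themis+/+ was 0.36 ± 0.34 (SE, edgeR, adjusted p = 0.622) for TRAV7D-2 and 0.74 ± 0.80 (adjusted p = 0.639) for TRAV7-1. TRAV7-2 stood at −0.43, TRAV7-3 at 0.28 and TRAV7D-3 at 0.07 on the same scale, and the value of TRAV7-2 with TRAV7D-2 joined to it was 0.32. The median of the members was 0.28, beside −0.09 over all segments and −0.30 over TRAV7 segments 4 to 6. TRAV7-1 was higher in both Themis-/- LN libraries, where 19.3% of all segments tested were higher and 25.4% lower.

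Between LN and thymus, the members with the lowest log2 values were TRAV7-2, at −0.53 ± 0.58 in Themis+/+ (SE, edgeR, adjusted p = 0.934) and −0.98 ± 0.59 in Themis-/- (adjusted p = 0.447), and TRAV7-3, at −0.29 and −0.30. In Themis-/- both of these were lower in both LN libraries, as were 28.9% of all segments tested, while 15.8% were higher, and in Themis+/+ 0 of the 5 members had groups apart, where 13.2% of segments were higher and 16.7% lower. The interaction of genotype and tissue lay between −0.45 for TRAV7-2 and −0.01 for TRAV7-3, with adjusted p from 0.941 to 0.991 by edgeR. With the copies joined, TRAV7-2 with TRAV7D-2 stood at −0.046 between LN and thymus in Themis+/+, −0.045 in Themis-/- and 0.0012 for the interaction, so the lower values of TRAV7-2 were not seen in the joined pair. TRAV7-3 with TRAV7D-3 stood at −0.10, −0.096 and 0.0064 in the same order.

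Summed, the members took 5.71% and 4.18% of reads in Themis+/+ thymus, 6.04% and 6.18% in Themis-/- thymus, 3.64% and 5.84% in Themis+/+ LN and 6.56% and 4.93% in Themis-/- LN. The difference between genotypes was 1.09 percentage points, Themis-/- being higher (two-sided exact permutation test within tissues, p = 0.222), and ran from 0.537 points without Themis+/+ LN library 1 to 1.63 points without Themis+/+ LN library 2. Between tissues it was −0.28 points, LN minus thymus (exact p = 0.722). With 2 libraries a group, this test has 36 arrangements and cannot go below 0.0556, which holds for every comparison of genotypes or tissues given below. Over the 8 libraries, the V segments outside TRAV7 whose log2 CPM (counts scaled to library size) followed the sum most closely were TRAV12N-2 (Pearson r = 0.93), TRAV1 (r = 0.85) and TRAV8D-2 (r = 0.82), of 87 segments compared. These correlations are descriptions, and the values compared come from the same 8 libraries.

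The members were joined less often than other V segments to the V-proximal end of the J cluster. J segments from TRAJ38 upwards made up 13.9% ± 2.95 (SD, n = 8 libraries) of the members' distinct sequences and 28.1% ± 6.62 of those of all other V segments. The share was lower in the members in 8 of 8 libraries, by 14.2 ± 5.88 percentage points (exact sign-flip permutation test, adjusted p = 0.0156 over 8 comparisons). Against TRAV7 segments 4 to 6, at 22.6% ± 5.68, it was lower by 8.70 ± 5.51 points in 7 of 8 libraries (exact permutation test, adjusted p = 0.0208), and in Themis-/- LN library 1 it was higher, 16.3% against 13.4%. The set of TRAV7-1, TRAV7-3 and TRAV7D-3 had a V-proximal share of 16.2% ± 4.43, and the set of TRAV7-2 and TRAV7D-2 one of 11.5% ± 4.80, the first being higher in 7 of 8 libraries.

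The J partners used most were TRAJ15, TRAJ30, TRAJ26, TRAJ23 and TRAJ12. TRAJ15 took 6.70% ± 1.89 (SD, n = 8) of the members' distinct sequences and 3.56% of those of other V segments, and TRAJ30 took 6.68% ± 2.54 and 4.24%. TRAJ26 stood at 6.09% ± 1.396 and 4.10%, TRAJ23 at 5.83% ± 2.21 and 5.09%, and TRAJ12 at 5.45% ± 2.01 and 4.93%. By member, the leading partner was TRAJ26 for TRAV7-2 (7.18%) and TRAV7D-2 (7.77%), TRAJ15 for TRAV7-3 (8.20%) and TRAV7D-3 (9.51%) and TRAJ35 for TRAV7-1 (10.3%). The value for TRAV7-1 rests on 20 of its 251 sequences and ranged from 0% to 55.6% between libraries. The near copies had the same leading partner by these means, but some leads were narrow. For TRAV7-2, TRAJ12 took 7.04% and held more sequences than TRAJ26, 66 against 59. For TRAV7-3, TRAJ9 took 7.82% and TRAJ30 7.77%. Sequences of TRAV7-2 and TRAV7D-2 could not be told apart with certainty, so the agreement of these copies is not independent.

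**Figure D2:**
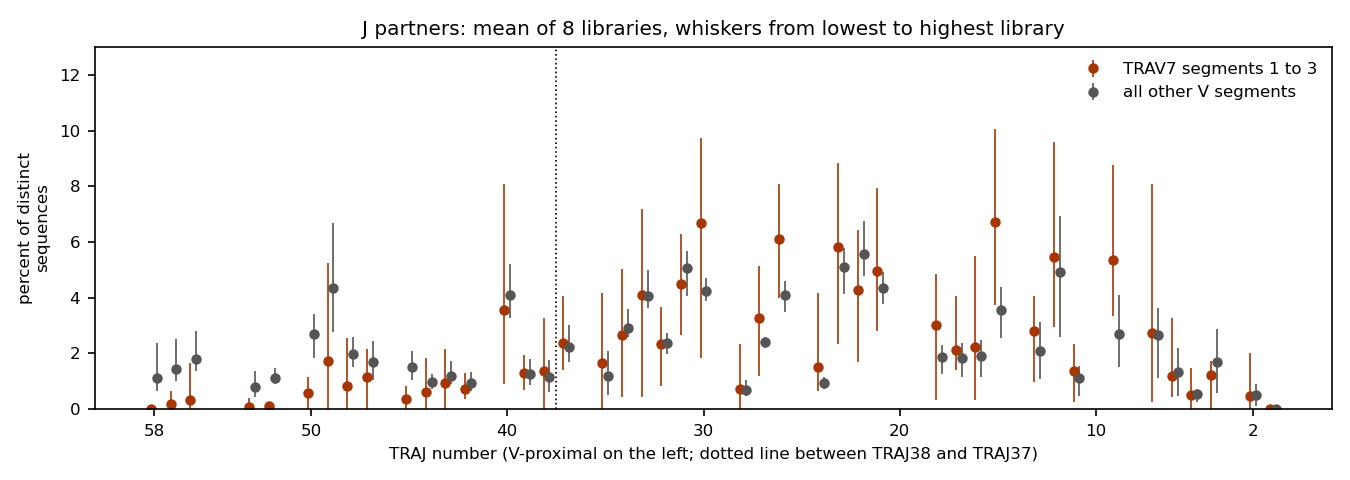
Percent of distinct CDR3 sequences (y axis) joined to each TRAJ segment (x axis, by number, from the V-proximal to the constant-proximal end) for the TRAV7 segments 1 to 3 and for all other V segments, with points for means of 8 libraries and whiskers from the lowest to the highest library. Left of the dotted line the members' points lie mostly below the others, and TRAJ15, TRAJ30 and TRAJ26, at 6.70%, 6.68% and 6.09%, stand above them.

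CDR3s of the members were short. The commonest length was 39 bases, at a median of 33.0% of a library's member sequences against 24.5% for other V segments, and 36 bases followed with 25.1% against 14.7%. The length of 42 bases, or 14 residues, took 23.0% of the members and 30.3% of the others. A length of 45 bases took 8.15% and 15.8%. The values at 36, 39, 42 and 45 bases did not overlap between the members and the others in any of the 8 libraries. Sequences that carried no base inserted between V and J made up 29.7% to 41.4% of the members and 31.7% to 37.1% of the others. In each genotype, both LN libraries of the members lay above both thymic libraries. The thymic shares were 32.3% and 32.5% in Themis+/+ and 29.7% and 36.1% in Themis-/-. The LN shares were 34.0% and 39.3% in Themis+/+ and 41.4% and 40.8% in Themis-/-. The LN mean was higher by 6.23 percentage points (exact permutation test within genotypes, p = 0.0556, the lowest possible). For the others it was higher by 1.75 points (exact permutation test within genotypes, p = 0.111).

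TRAV7-3 in Themis-/- LN stood apart in its joints. There, 53.7% and 66.7% of the 54 and 66 TRAV7-3 sequences had no inserted base, against 34.3% to 38.3% in the other 6 libraries. The mean number of inserted bases was 0.944 and 1 in these 2 libraries and 1.79 to 2.05 in the others. The near copy TRAV7D-3 had 41.1% and 46.2% of sequences without inserted bases in Themis-/- LN and 30.5% to 43.7% elsewhere, which overlap. The exact permutation test of genotype within tissues gave p = 0.111 for TRAV7-3, with a difference of 13.01 percentage points. This comparison was chosen after the values had been seen, and the thymic libraries, at 34.6% to 38.3%, did not show it.

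**Figure D3:**
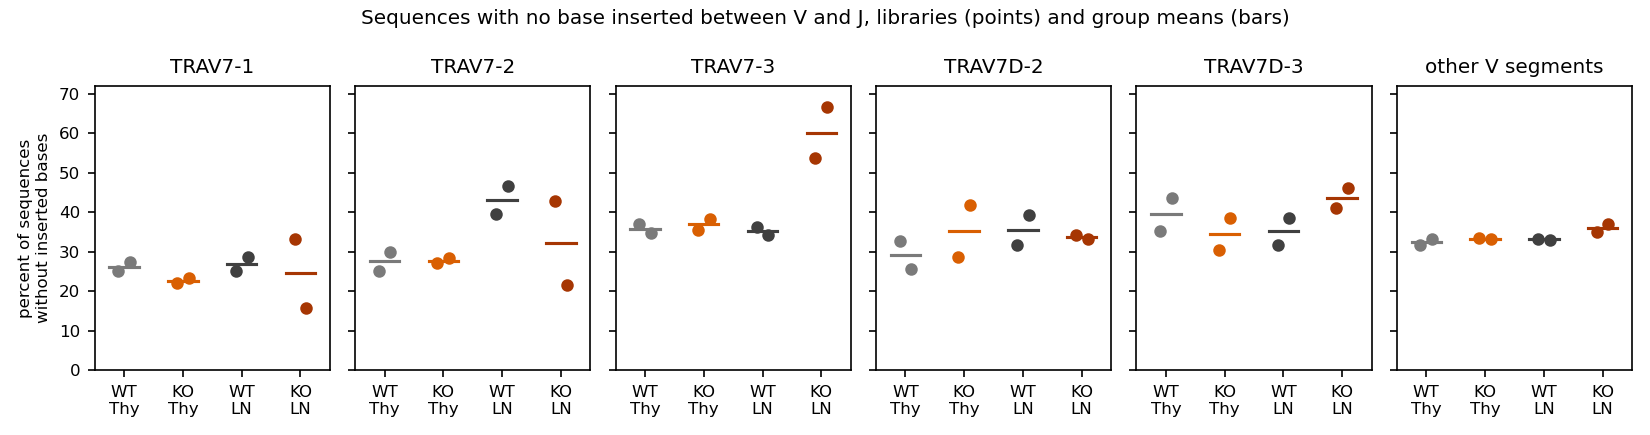
Percent of CDR3 sequences with no base inserted between V and J (y axis) for each member and for all other V segments, in 4 groups of 2 libraries, with points for libraries and bars for group means; WT is Themis+/+, KO is Themis-/- and Thy is thymus. The 2 Themis-/- LN points of TRAV7-3, at 53.7% and 66.7%, stand above the 6 others, which lie between 34.3% and 38.3%.

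Residue 5 of the members' CDR3 was rarely acidic. This position lies near the top of the loop and was taken from distinct 14-residue CDR3s, of which a library held 45 to 203 for the members. Aspartate or glutamate stood there in 2.28% ± 2.89 (SD, n = 8) of the members and in 31.2% ± 1.76 of the other V segments. The members were lower in 8 of 8 libraries, by 28.9 ± 2.97 percentage points (exact permutation test, adjusted p = 0.0156). TRAV7 segments 4 to 6 had 25.2% ± 6.35, and the members were lower by 22.9 ± 6.87 points, again in 8 of 8 libraries (exact permutation test, adjusted p = 0.0156). Alanine, with 4.79% ± 3.37 in the members and 16.1% ± 0.965 in the others, was also less common. The V segment can encode part of this stretch, so residue 5 is not fully independent of the rule that chose the members.

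Methionine led instead, with 18.3% ± 5.27 of the members and 2.89% ± 0.825 of the other V segments. It was common in TRAV7 segments 4 to 6 too, at 10.5% ± 3.06, so it was not particular to the members. Among the members it made up 17.7% and 15.1% in Themis+/+ thymus and 10.6% and 16.4% in Themis-/- thymus. The LN values were 23.5% and 27.4% in Themis+/+ and 20% and 15.6% in Themis-/-. Arginine followed at 12.9% ± 6.87 against 6.11%, then proline at 11.3% ± 5.31, leucine at 9.57% ± 6.86 and isoleucine at 8.84% ± 2.58. In TRAV7 segments 4 to 6 these stood at 4.62%, 10.6%, 5.69% and 7.32%, in the same order. Every one of the 166 member sequences with methionine used ATG, the only codon for it. In 155 of them (93.4%) the first 12 bases were those of the germline V segment. Among the sequences with another residue at position 5 this share was 60.3%. In 4 of the 5 members the printed germline continues for 1 base into codon 5, with an A. The examples below, with codon 5 in capitals, are the 3 sequences with methionine and the 1 with arginine found in most libraries and reads, and were picked after the values had been seen.
TRAV7-2 with TRAJ30, 2 libraries, 22 reads: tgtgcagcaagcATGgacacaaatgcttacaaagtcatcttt
TRAV7-2 with TRAJ26, 2 libraries, 20 reads: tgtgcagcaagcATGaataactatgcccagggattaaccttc
TRAV7-1 with TRAJ15, 2 libraries, 15 reads: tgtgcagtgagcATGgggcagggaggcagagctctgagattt
TRAV7D-2 with TRAJ26, 2 libraries, 77 reads: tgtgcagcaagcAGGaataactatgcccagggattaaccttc
Of the members' 14-residue sequences, 41.7% kept the first 12 germline bases and had an A at the next. The second and the fourth of the sequences above differ in codon 5 alone. The arginine codons were AGG in 73 and AGA in 42 of 135 sequences.

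**Figure D4:**
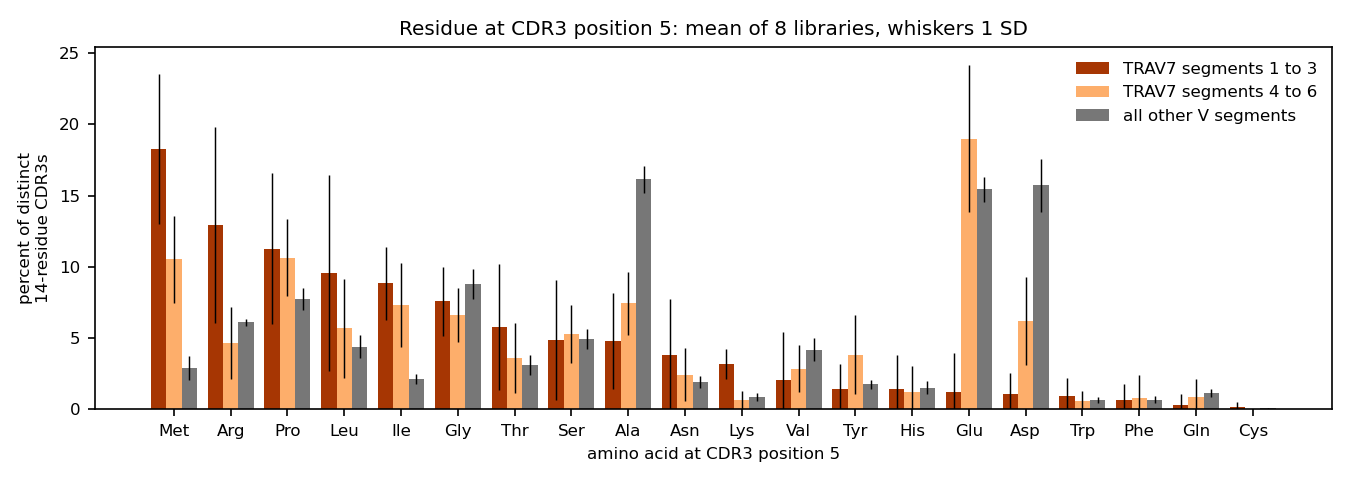
Percent of distinct 14-residue CDR3s (y axis) with each amino acid at position 5 (x axis) for the TRAV7 segments 1 to 3, the TRAV7 segments 4 to 6 and all other V segments, which include the latter, with bars for means of 8 libraries and whiskers of 1 SD. Methionine leads in the members at 18.3%, and aspartate and glutamate, at 1.06% and 1.21%, lie far below the 15.7% and 15.4% of the other V segments.

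The 2 germline sets differed at position 5. Methionine made up 28.2% ± 8.23 of the 14-residue CDR3s of TRAV7-1, TRAV7-3 and TRAV7D-3 and 11.4% ± 7.54 (SD, n = 8) of those of TRAV7-2 and TRAV7D-2, and was higher in the first set in 7 of 8 libraries. Arginine made up 7.84% ± 5.95 and 16.4% ± 10.2. Hydrophobic residues (alanine, cysteine, phenylalanine, isoleucine, leucine, methionine or valine) made up 55.9% ± 12.3 and 36.1% ± 10.6, the first set being higher in 8 of 8 libraries. Acidic residues were rare in both, at 1.85% ± 3.08 and 2.29% ± 3.44. A library held 16 to 99 such CDR3s of the first set and 22 to 111 of the second, so single libraries are imprecise.

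Taken as 1 group, the members had hydrophobic residues at position 5 in 44.3% ± 9.09 of CDR3s and the other V segments in 30.4% ± 1.38, a difference of 13.9 ± 9.77 points in 7 of 8 libraries (exact permutation test, adjusted p = 0.0208). Weighted by reads in place of distinct CDR3s, the difference was 11.9 points (exact permutation test, adjusted p = 0.104). Against TRAV7 segments 4 to 6, at 34.6% ± 5.004, the difference of 9.72 ± 12.1 points did not pass the test (exact permutation test, adjusted p = 0.0625), and without Themis-/- LN library 1 it was 12.95 points (exact permutation test, adjusted p = 0.0357).

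Summed hydropathicity on the Kyte-Doolittle scale, where a higher value is more hydrophobic, was 3.85 ± 1.32 (SD, n = 8) for the members' 14-residue CDR3s and 1.87 ± 0.360 for those of the other V segments. The members were higher in 8 of 8 libraries, by 1.99 ± 1.54 (exact permutation test, adjusted p = 0.0156), and by 1.19 when weighted by reads (exact permutation test, adjusted p = 0.0625). The sum covers the whole CDR3, whose first residues the V segment encodes, so the comparison in part restates the rule that chose the members. TRAV7 segments 4 to 6 stood at 2.62 ± 0.904, and the difference of 1.24 ± 1.54 (exact permutation test, adjusted p = 0.0268) did not pass without Themis+/+ thymus library 2, Themis-/- thymus library 2, either Themis+/+ LN library or Themis-/- LN library 2 (0.799 to 1.34, exact permutation test, adjusted p = 0.0536 in each). Within the members, TRAV7-1, TRAV7-3 and TRAV7D-3 had 5.67 ± 1.91 and TRAV7-2 and TRAV7D-2 had 2.54 ± 1.03, the first set being higher in 8 of 8 libraries. Valine, which the first set encodes at position 3, ranks above alanine on this scale. The sets were split by this codon, so their difference follows in part from the split, and so does its direction in each library. How much of the difference remains without position 3 was not calculated, so it is no separate result.

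Between genotypes and tissues, the exact permutation test of these measures cannot go below p = 0.0556, so it could call no difference. Hydrophobic residues at position 5 made up 45.8% and 56.2% in Themis+/+ thymus, 31.1% and 50% in Themis-/- thymus, 49.4% and 50.7% in Themis+/+ LN and 33.3% and 37.8% in Themis-/- LN. The Themis-/- mean was lower by 12.5 percentage points (exact permutation test within tissues, p = 0.111), and by 7.74 points without Themis-/- thymus library 1, and the groups were apart in the LN but not in the thymus. Summed hydropathicity was 3.37 and 4.98 in Themis+/+ thymus, 2.53 and 3.49 in Themis-/- thymus, 6.11 and 3.05 in Themis+/+ LN and 4.86 and 2.44 in Themis-/- LN. The genotypes differed by −1.05 and the tissues by 0.52, Themis-/- minus Themis+/+ and LN minus thymus, with exact permutation p of 0.333 and 0.667. The genotype difference ran from −1.81 without Themis+/+ LN library 2 to −0.279 without Themis+/+ LN library 1.

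Acidic residues at position 5 stood at 2 of 203 CDR3s and 1 of 73 in Themis+/+ thymus, 13 of 151 and 1 of 128 in Themis-/- thymus, 2 of 85 and 3 of 73 in Themis+/+ LN and 0 of 45 in each Themis-/- LN library. A count of 0 of 45 allows a share of up to 6.67%, for counting error only. Glutamate made up 12 of the 13 in Themis-/- thymus library 1. The genotypes differed by 0.143 points (exact permutation p = 1). Among single residues whose groups of libraries did not overlap, threonine (10% against 3.23%) and serine (6.67% against 2.05%) were higher and methionine (17.8% against 25.5%) and aspartate (0% against 3.23%) lower in Themis-/- than in Themis+/+ LN. In the thymus, lysine (3.55% against 1.92%) and tryptophan (2.05% against 0%) were higher and valine (1.503% against 6.76%) lower in Themis-/-. From thymus to LN, methionine (25.5% against 16.4%), lysine (3.82% against 1.92%) and aspartate (3.23% against 0.685%) were higher and valine (0% against 6.76%) lower in the LN of Themis+/+, and proline (14.4% against 7.46%) was higher and alanine (2.22% against 7.94%), glutamate (0% against 4.36%) and valine (0% against 1.503%) lower in the LN of Themis-/-. These 15 of 80 pairs of a residue and a comparison are given as a description and were not tested. With 2 libraries a group, groups can also stand apart by chance. Some residues were rare, and over the 8 libraries aspartate stood at position 5 in 7 and tryptophan in 8 of the members' 14-residue sequences.

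The V-proximal J share was 12.9% and 17.7% in Themis+/+ thymus, 9.20% and 12.04% in Themis-/- thymus, 14.5% and 11.7% in Themis+/+ LN and 16.3% and 16.9% in Themis-/- LN. It was thus lower in both Themis-/- than in both Themis+/+ thymic libraries and higher in both Themis-/- than in both Themis+/+ LN libraries. Over both tissues the genotypes differed by −0.55 points (exact permutation p = 0.833). Between LN and thymus the difference was 1.904 points (exact permutation p = 0.444), and ran from 0.703 points without Themis+/+ thymus library 1 to 3.11 points without Themis+/+ thymus library 2.

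Clone sizes were compared between genotypes and tissues by the exact permutation test, which cannot go below p = 0.0556 and so could call no difference. The 10 largest members of a library held 10.3% and 18.6% of its member reads in Themis+/+ thymus, 15.8% and 9.25% in Themis-/- thymus, 15.6% and 22.7% in Themis+/+ LN and 34.5% and 23.7% in Themis-/- LN. Both Themis-/- LN libraries were above the other 6. The mean was higher in the LN by 10.6 percentage points (exact permutation test within genotypes, p = 0.111) and in Themis-/- by 3.997 points (exact p = 0.556), the latter running from 1.29 points without Themis-/- LN library 1 to 6.71 points without Themis-/- LN library 2. With sequences 1 base apart merged, the shares were 16.7% and 31.2% in Themis+/+ thymus, 23.0% and 17.0% in Themis-/- thymus, 27.4% and 32.8% in Themis+/+ LN and 44.3% and 37.0% in Themis-/- LN.

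At an equal number of 3354 reads, the distinct member sequences expected were 803 and 404 in Themis+/+ thymus, 606 and 657 in Themis-/- thymus, 404 and 308 in Themis+/+ LN and 227 and 265 in Themis-/- LN. The LN mean was lower by 317 sequences (exact permutation test within genotypes, p = 0.111), and both Themis-/- LN libraries lay below both Themis+/+ LN libraries. The genotypes differed by −41.2 sequences over both tissues (exact permutation test, p = 0.778). After merging sequences 1 base apart, the expected numbers were 490 and 244, 354 and 387, 245 and 188, and 136 and 152 in the same order of groups. Over all V segments, the Themis-/- LN libraries also held the fewest sequences, 4357 and 5416, with 15.3 and 14.9 reads per sequence. The other libraries had 7.49 to 11.9 reads per sequence. Whether the members differ from other V segments in clone size or richness was not tested, so these values are not particular to the members. In bulk libraries, fewer cells of a clone and less RNA per cell cannot be told apart. Reads without molecular identifiers are not separate molecules.

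**Figure D5:**
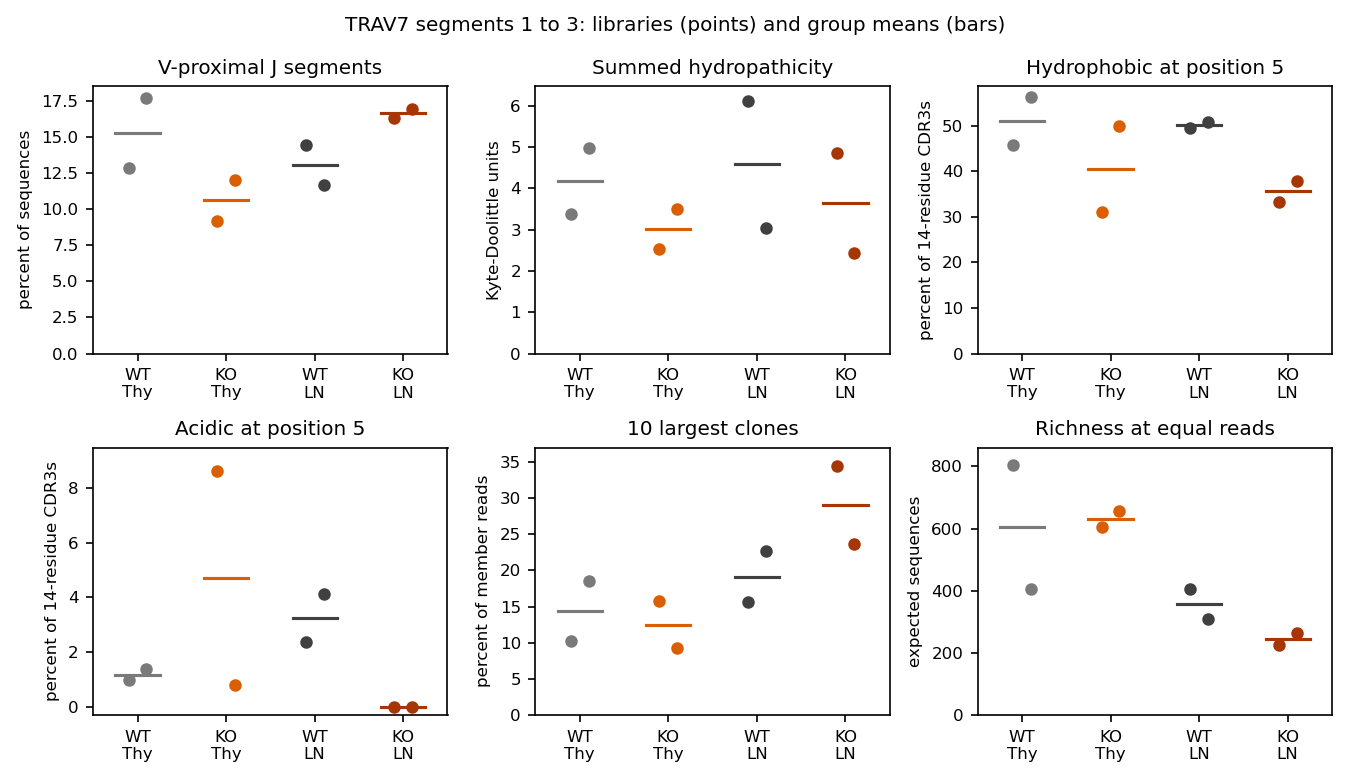
The 6 measures of the TRAV7 segments 1 to 3 (y axes with their units) in 4 groups of 2 libraries, with points for libraries and bars for group means; WT is Themis+/+, KO is Themis-/- and Thy is thymus. The largest clones hold 34.5% and 23.7% of member reads in Themis-/- LN, and richness at equal reads is lowest there, at 227 and 265 expected sequences.

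The largest member clone of a library held 1.45% to 6.62% of its member reads. It was a TRAV7D-2 sequence in 6 of 8 libraries, TRAV7-2 in Themis-/- thymus library 2 and TRAV7D-3 in Themis-/- LN library 1. The 4 with the most reads are shown for their joints, with the codon for position 3 in capitals.
Themis-/- thymus library 1, TRAV7D-2 with TRAJ23, 376 reads: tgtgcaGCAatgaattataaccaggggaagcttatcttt
Themis-/- LN library 1, TRAV7D-3 with TRAJ43, 290 reads: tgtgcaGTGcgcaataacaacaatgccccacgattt
Themis-/- LN library 2, TRAV7D-2 with TRAJ9, 181 reads: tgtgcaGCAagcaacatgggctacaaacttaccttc
Themis+/+ LN library 1, TRAV7D-2 with TRAJ26, 127 reads: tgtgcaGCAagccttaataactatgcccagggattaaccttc
The first held 4.26% and the second 6.62% of the member reads of its library. The largest clones of the remaining libraries were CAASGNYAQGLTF and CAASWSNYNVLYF in Themis+/+ thymus libraries 1 and 2, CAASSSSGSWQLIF in Themis-/- thymus library 2 and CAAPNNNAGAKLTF in Themis+/+ LN library 2, with 102 to 124 reads. Each of the 8 differed from the others.

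Few member CDR3s were shared between libraries. Of the 3052 distinct amino acid CDR3s, 342 (11.2%) were in at least 2 libraries and 27 (0.885%) in at least 4, while 17.7% and 3.16% of those of other V segments were. No member CDR3 was in all 8 libraries. The other V segments have more sequences in each library, and the part of this in sharing was not tested.

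The 5 most shared CDR3s all had 12 residues and were joined to TRAJ9, TRAJ15 or TRAJ30. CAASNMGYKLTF, with TRAJ9, was in 7 libraries and missing from Themis-/- LN library 1. It held 2.20% and 1.82% of member reads in Themis+/+ thymus, 1.89% and 0.182% in Themis-/- thymus, 1.16% and 2.00% in Themis+/+ LN and 0% and 7.67% in Themis-/- LN. Its 10 nucleotide sequences form pairs that differ only by T or G at 1 base, in the last 12 bases. Whether the sequences of a pair are separate rearrangements was not tested, so the count may overstate their number. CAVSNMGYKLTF, its counterpart with valine, was in 7 libraries at up to 2.43% and had 7 nucleotide sequences, most of them in such pairs. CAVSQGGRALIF, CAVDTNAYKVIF and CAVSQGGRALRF were in 6 libraries each, with 3, 4 and 2 nucleotide sequences. The nucleotide sequence of each found in most libraries is shown, with the codon for position 3 in capitals.
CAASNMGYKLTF, TRAV7D-2, 5 libraries: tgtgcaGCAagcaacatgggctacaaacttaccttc
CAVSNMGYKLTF, TRAV7-3 or TRAV7D-3, 5 libraries: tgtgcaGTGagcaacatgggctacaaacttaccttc
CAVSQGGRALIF, TRAV7-3 or TRAV7D-3, 6 libraries: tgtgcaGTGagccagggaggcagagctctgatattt
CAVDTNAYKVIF, TRAV7-2 or TRAV7D-3, 4 libraries: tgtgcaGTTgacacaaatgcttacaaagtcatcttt
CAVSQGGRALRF, TRAV7-1, TRAV7-3 or TRAV7D-3, 6 libraries: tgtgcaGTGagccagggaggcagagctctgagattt
The first 2 differ in the germline codon alone and each of the 5 has no inserted base in the deposited alignment. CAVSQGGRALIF and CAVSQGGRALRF were found in the same 6 libraries and their sequences above differ at 1 base, in the last 12 bases. The base is T in the first and G in the second, the commonest kind of difference described below. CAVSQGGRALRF had fewer reads than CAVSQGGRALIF in each of these libraries. Whether it is a separate rearrangement was not tested.

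Differences of 1 base were common. Of the members' sequences, 38.8% to 42.6% of a library lay 1 base from a sequence with more reads in the same library, with the same J segment and length, against 34.7% to 38.9% of the sequences of other V segments. They held 29.2% to 35.9% of the member reads. From the larger to the smaller sequence, the change was T to G in 947 of the 1670 such member sequences (56.7%) and G to T in 20.4%, and each of the other 10 kinds of change 0.898% to 4.55%. Of the T-to-G differences, 97.3% were in the last 12 bases of the CDR3, which the J segment encodes, against 58.2% of the other changes. The smaller sequence had a median of 46.7% of the reads of the larger one. Whether these are separate rearrangements was not tested, and counts of distinct sequences include them. None of the 135 sequences with arginine at position 5 had another residue there in the larger sequence, and the members' methionine share was 18.0% ± 5.06 after merging.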

How the data were processed

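The authors sorted CD8 cells, made TCRα cDNA by 5′ RACE, sequenced it and extracted CDR3s with MiXCR, of no stated version; the labels list CASAVA 1.4 and mm9, but the tables hold no coordinates. Each library's table as deposited by the authors gives raw read counts per CDR3 with a fraction that equals the count over the library total. Gaps in the clone numbering made up 13.9% to 16.9%, and 0 sequences held a stop codon.

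Sequences were assigned by first V and J hit. V segment counts went into 1 edgeR 4.0.16 model of 8 libraries (quasi-likelihood, TMM, at least 10 reads in at least 2 libraries), with DESeq2 1.42.0 as an alternative. Other measures were compared by exact permutation over libraries; both kinds of test were tested on simulated data. The text names all 5 members, the 3 V segments most alike in usage, the 5 leading J partners and each member's own, the 5 leading residues at position 5 and those whose groups were apart, the 5 most shared CDR3s and each library's largest clone. The members and lists were chosen with earlier results of these data known. TRDV segments, which also serve TCRδ, took 0.193% to 1.86% of reads. Germline sequences came from GENCODE M21 (GRCm38). No label says whether the 2 libraries of a group came from separate mice, so p-values measure the spread between libraries, which may be technical; limits cover counting error only. Merging sequences 1 base apart and crossing the replicate numbers were alternatives chosen after seeing the data. Python 3.11.15, scipy 1.17.1 and R 4.3.3 were used.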

Additional observations from a re-analysis of the deposited data

Results flagged for a closer look

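The V-proximal J share of the members was lower in both Themis-/- than in both Themis+/+ thymic libraries, by a mean of −4.64 percentage points, and higher in both Themis-/- than in both Themis+/+ LN libraries, by 3.54 points; the difference between the tissues was not tested. Acidic residues at position 5 were higher in both LN than in both thymic libraries of Themis+/+, by 2.05 points, and lower in both LN than in both thymic libraries of Themis-/-, by −4.70 points, a difference that was not tested either and rests on 1 to 13 CDR3s of a thymic library and 0 to 3 of an LN library.

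The comparisons did not use the libraries sorted for Vα3.2. There, the members gave 6 reads of 22047 in Themis-/- LN library 2 and 4 reads of 21570 in Themis+/+ LN library 2. Themis-/- LN library 1 held 1 such read, and the other 5 sorted libraries held 0. The 4 and the 6 reads each came from 1 CDR3 sequence. They were flagged for exceeding 3 reads, the upper limit set on a count of 0. That limit is no test of presence, so whether the sorted cells held members was not tested.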

How the results depend on the processing

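No member passed the usage test in any alternative run, the lowest adjusted p over 370 fits being 0.110 (edgeR or DESeq2). With 2 libraries a group, the exact permutation test of genotype or tissue cannot go below p = 0.0556, so it says nothing of stability. Of the members against other V segments, the V-proximal J and acidic results kept direction and call in every alternative run. The cause of the changes below was not tested.

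The number of V segments called changed as follows. Distinct sequences in place of reads gave 3 for genotype in the thymus, 9 for genotype in the LN and 5 for LN against thymus in Themis-/-. DESeq2 gave 7 for genotype in the LN. With only the 4 libraries of a comparison, the counts were 1 for genotype in the LN and 0 for tissue in Themis-/-. Joined copies gave 0 for the interaction. Leaving out 1 library, which leaves a lone library assumed to vary like the other groups, gave 1 to 9 for genotype in the LN, 0 to 9 for tissue in Themis-/- and 0 to 4 for the interaction, the highest of each without Themis-/- LN library 2.

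The replicate block gave 1 call for tissue in Themis-/- and turned the interaction of TRAV7-3 to 0.018, with the other counts of calls at 0, 2, 0 and 1. Deviations of same-numbered libraries correlated at −0.204 to 0.017 over 114 segments, so the numbers were not taken to pair the libraries; crossed numbers gave 0 calls in the thymus and 2 in the LN.

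Log2 fold changes that turned sign were these. For genotype in the thymus, TRAV7-2 was −0.065 by DESeq2, −0.024 without the low-count filter, −0.076 with 4 libraries and −0.13 with distinct sequences. For genotype in the LN, TRAV7-2 with joined copies was 0.32. For tissue in Themis+/+, TRAV7D-2 was −0.046 and TRAV7D-3 −0.10 with joined copies, and TRAV7D-3 −0.43 with distinct sequences. For tissue in Themis-/-, distinct sequences gave 0.0030 for TRAV7-3, −0.089 for TRAV7D-2 and −0.17 for TRAV7D-3, and joined copies −0.045 for TRAV7D-2 and −0.10 for TRAV7D-3. For the interaction, joined copies gave 0.0012 for TRAV7-2 and TRAV7D-2 and 0.0064 for TRAV7-3 and TRAV7D-3, DESeq2 gave 0.18 for TRAV7-3 and 0.019 for TRAV7D-2, no filter gave 0.19 and 0.0057, distinct sequences gave 0.40 for TRAV7-3 and 0.26 for TRAV7D-3, and merging sequences 1 base apart gave 0.11 for TRAV7-3, 0.087 for TRAV7D-2 and 0.034 for TRAV7D-3.

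Leaving out 1 library, the genotype value in the thymus ran from −0.28 to 0.28 for TRAV7-2, −0.020 to 0.60 for TRAV7-3 and −0.0047 to 0.63 for TRAV7D-3, and in the LN from −0.67 to 0.16 for TRAV7-2 and −0.22 to 0.82 for TRAV7D-3. The tissue value in Themis+/+ ran from −0.28 to 1.97 for TRAV7-1, −0.021 to 0.30 for TRAV7D-2 and −0.43 to 0.60 for TRAV7D-3, and in Themis-/- from −0.17 to 0.92 for TRAV7-1, −0.26 to 0.53 for TRAV7D-2 and −0.22 to 0.45 for TRAV7D-3. The interaction ran from −1.64 to 0.53 for TRAV7-1, −0.69 to 0.14 for TRAV7-2, −0.17 to 0.73 for TRAV7-3, −0.53 to 0.41 for TRAV7D-2 and −0.53 to 0.51 for TRAV7D-3.

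Among the other measures, merging sequences 1 base apart turned the genotype difference in V-proximal J share to 0.782 points. The tissue difference in hydropathicity was −0.242 over every CDR3 length and −0.308 weighted by reads. The genotype difference in acidic residues was −0.167 points without single-read sequences, −0.211 with a single best V hit and −0.246 after merging. Leaving out 1 library, the tissue difference ran from −0.831 to 0.266 points for the share of reads, −0.245 to 1.29 for hydropathicity, −7.69 to 1.74 points for hydrophobic and −3.28 to 0.636 points for acidic residues, and the genotype difference from −1.75 to 0.653 points for the V-proximal J share, −1.81 to 2.10 points for acidic residues and −141 to 58.5 sequences for richness.

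Hydropathicity against other V segments weighted by reads was 1.19, and hydrophobic residues 11.9 points, neither past the threshold. Hydropathicity against TRAV7 segments 4 to 6 did not pass after merging (0.664), weighted by reads (0.401) or without single-read sequences (1.11), and ran from 0.799 to 1.45 without 1 library. Hydrophobic residues against TRAV7 segments 4 to 6 ran from 7.76 to 12.95 points. The position 5 values rest on 45 to 203 CDR3s of 14 residues a library.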
